A study of Homo sapiens with 8 samples.

Results

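Medium alone was compared with the DMSO vehicle in single HepaRG cells profiled with Parse Evercode, a split-pool barcoding method that counts unique molecular identifiers (UMIs), each standing for 1 captured RNA molecule. The members were the cells whose name in the cell table says media control or DMSO control, that had at least 500 detected genes and at most 20% of their UMIs from genes whose symbol starts with MT-, and that came from a culture with at least 30 such cells in a run holding both conditions. By this rule 1440 cells, 786 in medium and 654 in DMSO, were used of the 2083 control cells (1149 in medium and 934 in DMSO) and of the 12976 cells in the table. UMIs were summed per culture name, which gave 6 cultures, 1 of each condition in runs 3, 5 and 6, and every difference is given as medium minus DMSO.

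The study exposed HepaRG, a human hepatic cell line supplied as terminally differentiated cells, to reference stressors and measured the response cell by cell. All cultures grew on collagen in HepaRG base medium with its supplement and a thawing and plating additive, for 7 days before a 24 h exposure, and all cells were fixed afterwards and frozen with DMSO added. The DMSO cultures then received 0.1% DMSO, the vehicle in which every chemical was dissolved. The medium cultures are taken from their name, media control, to have received no vehicle, which the sources used here do not state. Whether the base medium itself held DMSO is not given in the sources used here, nor is the meaning of a run number. The medium cultures are named only in the cell table, and the methods of the study describe a single treated culture per condition. Nothing says that cultures of different runs were grown separately, so the p-values measure the spread between these 6 samples, which may be technical.

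HepaRG cells come from 1 line and grow as islands of hepatocyte-like cells among cells of other kinds, so a culture is a mixture. DMSO is a small polar solvent that carries most test chemicals in toxicology, and it is also an ingredient of the media in which HepaRG cells are commonly differentiated. Hepatocytes clear foreign compounds with cytochromes P450, which oxidise them, with UGT, SULT and GST enzymes, which conjugate them, and with efflux pumps. The genes of the CYP3A and CYP2B families are known targets of 2 nuclear receptors, PXR (gene NR1I2) and CAR (gene NR1I3), which bind pairs of hexamers such as AGGTCA.

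The proximal promoters of the P450 genes described below are shown because these receptor hexamers lie in them. They are the 250 bases before the RefSeq gene start in build GRCh38.p14, written 5′ to 3′ on the strand of the gene, with matches to the hexamers in capitals. The CYP3A4 window is chr7:99784185-99784434 (minus strand), the CYP3A5 window chr7:99679997-99680246 (minus strand), the CYP3A7 window chr7:99735197-99735446 (minus strand) and the CYP2B6 window chr19:40991032-40991281 (plus strand).
CYP3A4: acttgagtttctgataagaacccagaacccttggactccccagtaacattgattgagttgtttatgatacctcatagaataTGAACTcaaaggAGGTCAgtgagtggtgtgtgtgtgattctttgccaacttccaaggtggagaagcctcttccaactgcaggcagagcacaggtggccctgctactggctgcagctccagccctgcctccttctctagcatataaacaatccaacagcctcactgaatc
CYP3A5: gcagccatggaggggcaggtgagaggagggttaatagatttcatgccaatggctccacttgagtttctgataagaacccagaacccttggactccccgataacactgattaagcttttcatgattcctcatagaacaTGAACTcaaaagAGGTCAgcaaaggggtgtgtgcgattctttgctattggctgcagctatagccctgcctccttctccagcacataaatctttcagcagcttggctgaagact
CYP3A7: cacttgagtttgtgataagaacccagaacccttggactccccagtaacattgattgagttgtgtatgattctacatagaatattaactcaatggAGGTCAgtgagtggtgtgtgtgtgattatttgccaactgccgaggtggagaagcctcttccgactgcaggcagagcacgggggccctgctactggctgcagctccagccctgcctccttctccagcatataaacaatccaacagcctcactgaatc
CYP2B6: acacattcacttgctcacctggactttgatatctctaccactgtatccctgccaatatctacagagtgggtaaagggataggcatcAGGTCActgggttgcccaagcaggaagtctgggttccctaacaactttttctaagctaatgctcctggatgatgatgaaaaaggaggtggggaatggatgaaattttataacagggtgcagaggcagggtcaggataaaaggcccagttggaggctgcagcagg

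Both strands were searched for the hexamer AGGTCA, for its relative TGAACT, and for a pair in which TGAACT stands 6 bases before AGGTCA. Matches of the pair overlap those of the single hexamers by construction. CYP3A4 held the pair at 169 to 152 bases before its start and CYP3A5 at 113 to 96 bases. Of 35116 RefSeq promoter windows of the same length, 3 (0.00854%) held the pair, and besides CYP3A4 and CYP3A5 this was ITGB1BP2. The CYP3A7 and CYP2B6 windows held AGGTCA alone, at 156 to 151 and at 164 to 159 bases before the start. AGGTCA was present in 4242 windows (12.1%) and TGAACT in 3090 (8.80%), and a match is a description of these letters, not evidence that a receptor binds there.

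The control cells were spread evenly over the 8 sublibraries, each with 213 to 292 of them, and none of their barcodes was listed in more than 1 culture, while 129 of 1928 combinations of barcoding wells recurred in more than 1 sublibrary. Kept cells gave 12552536 UMIs in DMSO and 15655850 in medium in run 3, 33404488 and 53461468 in run 5, and 4819220 and 4630441 in run 6, so run 5 was the deepest run by far. No control cell had fewer than 500 genes, and the MT- limit removed 62 of 312 DMSO and 90 of 326 medium cells in run 3, 82 of 393 and 243 of 670 in run 5, and 4 of 97 and 1 of 124 in run 6. The share of cells kept was thus lower in medium in runs 3 and 5 and higher in run 6, with a mean of 85.0% ± 9.39 in DMSO and 78.4% ± 18.5 in medium (SD, n = 3; exact sign-flip permutation test over runs, two-sided, p = 0.5). With 3 runs this permutation test cannot go below p = 0.25. The median share of MT- UMIs over all cells was 15.2%, 16.1% and 12.6% in DMSO and 16.8%, 18.6% and 12.2% in medium. Markers of the labelled cell type were present in every culture: the summed level of 18 hepatocyte markers was 14039 to 27959 CPM (UMIs of a gene per 1000000 UMIs of its culture) in DMSO and 12631 to 20684 in medium. The 6 macrophage markers summed to 13.6 to 35.4 CPM in DMSO and 20.0 to 27.0 in medium, and 5 endothelial markers to 55.2 to 97.1 and 64.1 to 91.9.

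No gene passed the test between medium and DMSO. Of 20235 genes tested with edgeR's quasi-likelihood test with run as a block, 0 (0%) were called higher and 0 (0%) lower in medium at an adjusted p under 0.05, and every adjusted p (Benjamini-Hochberg) rounded to 1.00. At an unadjusted p under 0.05 there were 381 genes, 151 (0.746%) higher and 230 (1.14%) lower. The 381 are 1.88% of the genes tested, a smaller share than the threshold of 0.05 alone would give if no gene differed. DESeq2 with the same design called 0 genes higher and 2 lower, CYP2B7P and CYP3A7, and had 248 genes at an unadjusted p under 0.05. A direction shared by all 3 runs was seen for 1765 genes (8.72%) higher and 2572 genes (12.7%) lower in medium.

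The 95% intervals of the fitted differences, which average over runs that disagreed with each other, were narrow for most genes. The median standard error of the log2 difference was 0.22 over all genes and 0.12 over the 4376 genes with a mean of at least 50 CPM in the higher condition. The 95% interval lay within 2-fold in both directions for 15137 genes (74.8%), and for 4252 (97.2%) of the 4376 better expressed genes. Only 74 genes had a fitted difference beyond 2-fold, 1 of them among the better expressed genes. Leaving out run 5 changed this picture and is described with the differences between runs.

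Drug metabolism genes lay lower in medium than in DMSO more often than genes at large. The list held 22 genes, of which 20 passed the filter on low counts, while CYP1A2 and CYP2D6 did not and were not tested. All 20 log2 differences were negative, from −2.07 to −0.11, 15 were negative in each of the 3 runs against 12.7% of all genes, and 11 had an unadjusted p under 0.05 against 1.14%. None passed after adjustment over all genes (edgeR). The median log2 difference of the list was −0.47, beside 0.00 for all genes tested, and within runs 3, 5 and 6 it was −0.55, −0.19 and −0.75. Since UMIs were summed over all cells of a culture, fewer hepatocytes and less RNA per hepatocyte cannot be told apart in these values.

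**Figure D1:**
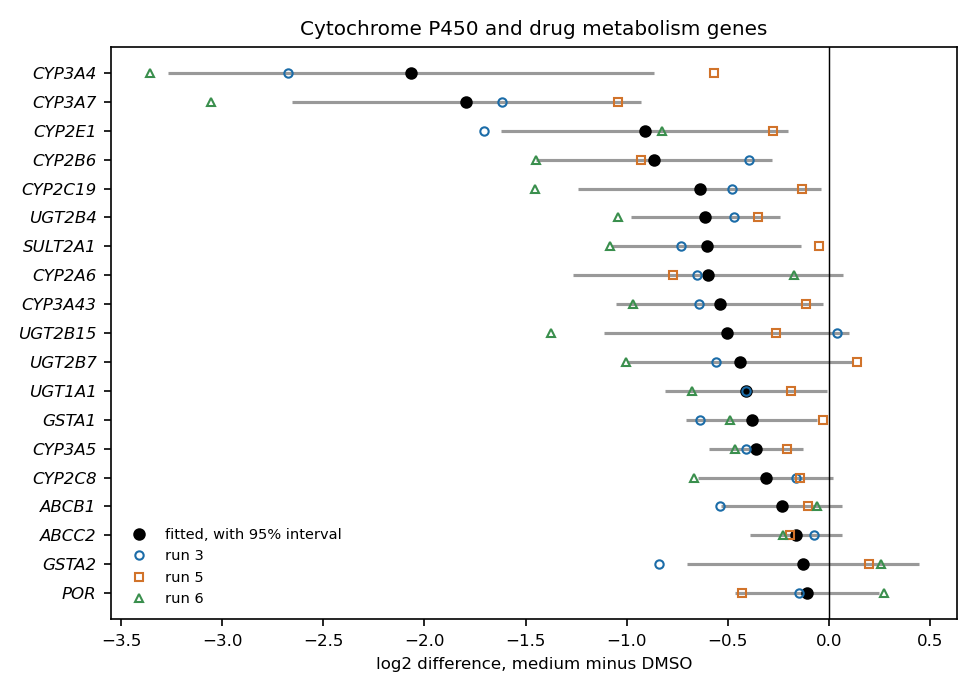
Log2 differences, medium minus DMSO, of the tested drug metabolism genes reported by name; filled points with bars are the edgeR estimates over 3 runs with their 95% intervals, and open symbols are the 3 within-run values. Every estimate drawn lies left of 0, from −2.07 for CYP3A4 to −0.11 for POR, and the run 5 value is the nearest to 0 for 13 of them.

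CYP3A4 (ENSG00000160868, chr7:99756960-99784248, minus strand), the P450 that handles the broadest range of drugs in adult liver, had the largest difference of the list. Its level in DMSO was 27.5 CPM in run 3, 34.1 in run 5 and 60.8 in run 6, and in medium 4.28, 23.0 and 5.83. Every medium culture lay below every DMSO culture, with a wide gap in runs 3 and 6 and a narrow one in run 5. The mean was 40.8 ± 17.6 CPM in DMSO and 11.0 ± 10.4 in medium (SD, n = 3), and the fitted log2 difference was −2.07 (SE 0.51, 95% interval −3.27 to −0.87, unadjusted p = 0.00479, adjusted p = 1.00, edgeR). These levels rest on 1777 UMIs in DMSO and 1324 in medium.

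CYP3A7 (ENSG00000160870, chr7:99705036-99735196, minus strand), the fetal liver form, showed the same order. It was at 11.8, 20.8 and 42.1 CPM in DMSO in runs 3, 5 and 6 and at 3.83, 10.1 and 4.97 CPM in medium, so the groups did not overlap. The log2 difference was −1.79 (SE 0.36, 95% interval −2.66 to −0.93, unadjusted p = 0.00176, edgeR), and DESeq2 called it lower (log2 difference −1.84, SE 0.35, adjusted p = 0.00112). CYP3A7-CYP3A51P (ENSG00000282301), a readthrough of CYP3A7 with a neighbouring pseudogene, was at 3.43, 4.40 and 7.26 CPM against 0.894, 1.44 and 0.864. CYP3A4, CYP3A7 and their relatives are near-identical over long stretches, so how reads were divided among them is uncertain.

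CYP3A5 (ENSG00000106258, chr7:99648194-99679996, minus strand), a further member of the cluster, differed much less. DMSO cultures held 1929, 1788 and 1971 CPM and medium cultures 1453, 1546 and 1430 CPM, in runs 3, 5 and 6. The groups did not overlap although the log2 difference was only −0.36 (SE 0.10, 95% interval −0.59 to −0.13, unadjusted p = 0.00813, edgeR). CYP3A43, the remaining gene of the family, was at 19.7, 13.4 and 18.7 CPM against 12.6, 12.4 and 9.50, a log2 difference of −0.54 (SE 0.22).

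CYP2B6 (ENSG00000197408, chr19:40991282-41018398, plus strand), which oxidises bupropion and cyclophosphamide, was at 12.3, 14.0 and 10.8 CPM in DMSO and at 9.33, 7.35 and 3.89 in medium. The lowest DMSO culture was above the highest medium culture, and the log2 difference was −0.86 (SE 0.25, 95% interval −1.45 to −0.28, unadjusted p = 0.0101, edgeR). Its neighbouring pseudogene CYP2B7P (ENSG00000256612, chr19:40924273-40949234, plus strand), chosen after its values were seen, had the smallest p of the P450 genes. It was at 18.4, 15.5 and 11.0 CPM in DMSO and at 3.90, 4.77 and 4.97 in medium, so the 3 medium cultures lay close together and well below the others. The log2 difference was −1.75 (SE 0.25, 95% interval −2.35 to −1.14, unadjusted p = 0.000249, adjusted p = 1.00) with edgeR and −1.74 (SE 0.32, adjusted p = 0.00112) with DESeq2. CYP2B6 and CYP2B7P share reads, and their separate values are uncertain for the same reason as in the CYP3A cluster.

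**Figure D2:**
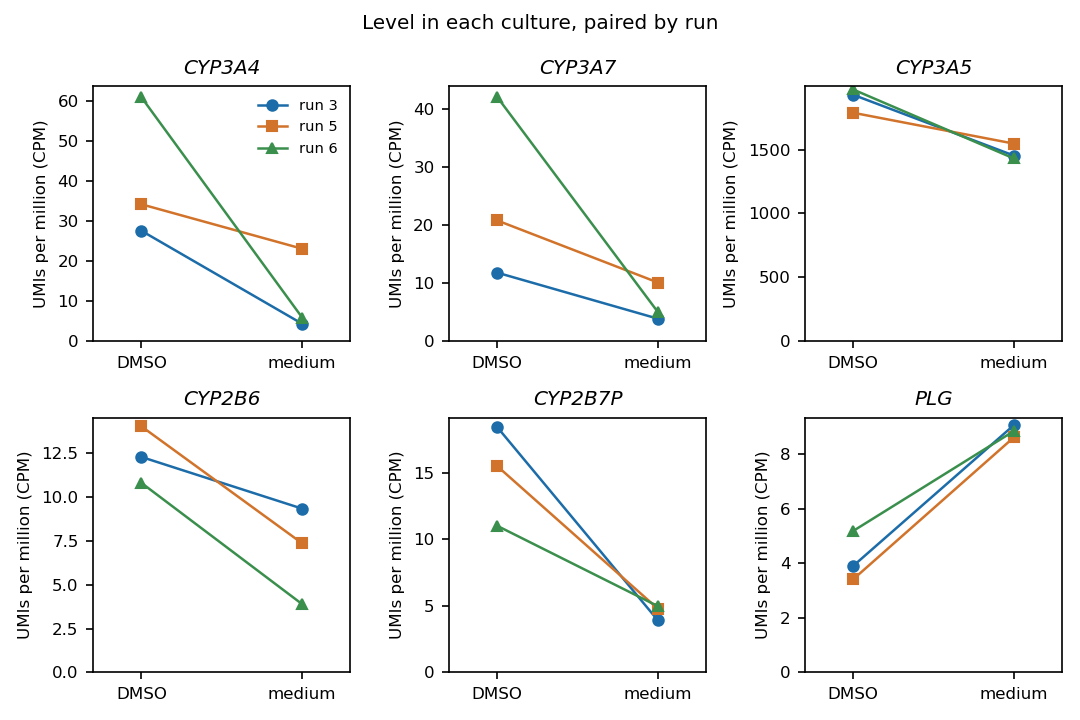
Level in each culture in CPM for 5 P450 genes and PLG; lines join the DMSO and medium culture of the same run, and each axis starts at 0. The P450 genes are lower in medium in all 3 runs, CYP3A4 with 34.1 against 23.0 CPM in run 5 and 60.8 against 5.83 in run 6, while PLG is higher in medium in all 3.

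The other oxidising enzymes were lower by smaller amounts or unevenly. CYP2E1, which handles ethanol and small solvents, was at 15.3, 14.7 and 13.5 CPM in DMSO and at 4.66, 12.2 and 7.56 in medium, a log2 difference of −0.91 (SE 0.30). CYP2C19, which activates clopidogrel, was at 30.0, 31.3 and 39.8 CPM against 21.5, 28.5 and 14.5, a log2 difference of −0.64 (SE 0.25). Neither gene's groups overlapped, and in both the run 5 cultures were nearly level. CYP2C8 was at 57.0, 102 and 100.4 CPM against 51.0, 92.5 and 63.3 (log2 difference −0.31, SE 0.14), lower in each run although the groups overlapped. POR, the reductase that feeds electrons to every microsomal P450, was at 102, 127 and 104 CPM against 91.9, 94.0 and 125 (log2 difference −0.11, SE 0.15), with overlapping groups.

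Conjugating enzymes gave values of the same sign. UGT2B4, which glucuronidates bile acids, was at 64.3, 128 and 149 CPM in DMSO and at 46.5, 100.2 and 72.1 CPM in medium. It was lower in each run, by a log2 difference of −0.61 (SE 0.16, unadjusted p = 0.00571, edgeR), although runs differed enough for the groups to overlap. SULT2A1, which sulfates steroids and bile acids, was at 96.4, 98.9 and 112 CPM against 58.1, 95.7 and 52.7, a log2 difference of −0.60 (SE 0.20). For UGT1A1, the bilirubin-conjugating enzyme, the levels were 26.7, 25.3 and 29.5 CPM against 20.1, 22.3 and 18.4 (log2 difference −0.41, SE 0.17). GSTA1, a glutathione transferase that shares reads with GSTA2, had a log2 difference of −0.38 (SE 0.14) and GSTA2 one of −0.13 (SE 0.24). The efflux pumps had small log2 differences, −0.23 (SE 0.13) for ABCB1 and −0.16 (SE 0.10) for ABCC2.

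The messages of PXR and CAR, known regulators of CYP3A and CYP2B genes, kept no single direction over the runs. NR1I2, the gene of PXR, was at 14.4, 18.4 and 13.3 CPM in DMSO and at 13.5, 15.9 and 16.0 in medium, a log2 difference of −0.03 (SE 0.18, 95% interval −0.46 to 0.40). NR1I3, the gene of CAR, was at 3.98, 3.86 and 4.36 CPM against 3.70, 2.17 and 4.75, a log2 difference of −0.33 (SE 0.29, 95% interval −1.01 to 0.34). Both pairs of groups overlapped, and the interval of NR1I3 still allows a 2-fold lower level. It also includes the drug metabolism median of −0.47. Neither receptor message differed detectably between the groups.

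Run 4 went the other way. It was left out because its medium culture held 22 kept cells and 497833 UMIs, against 127 cells and 3417334 UMIs in DMSO. There 17 of the 20 tested drug metabolism genes were higher in medium and 3 lower: CYP3A4 was at 20.5 CPM in DMSO and 24.1 in medium (70 and 12 UMIs), CYP2B6 at 12.3 and 48.2 (42 and 24 UMIs) and CYP2B7P at 4.68 and 16.1 (16 and 8 UMIs). Hepatocyte-like cells, defined below, made up 19 of 127 cells (15.0%) in DMSO and 7 of 22 (31.8%) in medium of that run, and the part of this in the values was not tested. With run 4 included the list's median was −0.23 instead of −0.47, with 17 of 20 genes lower, and the difference of CYP2B6 was −0.33 instead of −0.86. Keeping only cells with at most 10% MT- UMIs, which left 15 to 40 cells in each medium culture of runs 3 to 6, run 4 included, turned the list's median to 0.14, with 5 of 15 tested genes lower.

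The CYP3A4 values were carried by few cells. Cells with at least 1 CYP3A4 UMI were 27 of 250 (10.8%), 78 of 311 (25.1%) and 14 of 93 (15.1%) in DMSO in runs 3, 5 and 6, and 25 of 236 (10.6%), 123 of 427 (28.8%) and 10 of 123 (8.13%) in medium. The 5 highest cells held 87.0%, 52.5% and 91.8% of all CYP3A4 UMIs in DMSO and 59.7%, 48.8% and 81.5% in medium. The single highest cell had 132, 180 and 139 UMIs in DMSO and 20, 198 and 17 in medium, so a few cells set the level of each culture. Without its highest cell the level of each culture was 17.1, 28.9 and 32.1 CPM in DMSO and 3.01, 19.3 and 2.18 in medium, still lower in each run. After thinning every cell to 5000 UMIs, which removes differences in depth, the share of cells with a CYP3A4 UMI was 3.20%, 6.75% and 9.68% in DMSO and 1.27%, 6.09% and 2.44% in medium. Mean CYP3A4 UMIs per thinned cell were 0.132, 0.141 and 0.581 in DMSO. They were 0.0212, 0.192 and 0.0325 in medium, so higher in medium in run 5.

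The other named P450 genes had the same skew to few cells, as far as they were examined. The top 5 cells held 85.8%, 67.1% and 88.7% of the CYP3A7 UMIs in DMSO and 60.0%, 25.4% and 69.6% in medium. Without the highest cell CYP3A7 was at 6.40, 15.7 and 12.0 CPM in DMSO and at 2.19, 9.39 and 3.13 in medium. CYP2B7P was at 15.4, 13.1 and 6.42 CPM without the highest cell in DMSO and at 3.09, 3.75 and 2.19 in medium. CYP2B6 was at 10.4, 12.1 and 7.43 CPM without the highest cell in DMSO and at 6.82, 6.80 and 1.96 in medium. In all 4 genes the order of the conditions was kept in each run when 1 cell was taken out of each culture. At 5000 UMIs per cell, however, 4.40%, 4.50% and 2.15% of DMSO cells had a CYP2B6 UMI. In medium it was 2.54%, 4.22% and 3.25%, so higher in run 6. CYP3A5, in contrast, was detected in 90.0%, 96.8% and 93.5% of DMSO cells and in 93.6%, 99.1% and 95.9% of medium cells. Mesenchymal-like cells, defined below, also had a CYP3A5 UMI in 64.7% to 96.4% of cells, at 149 to 365 CPM, so detection alone says little for this gene.

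Cells were clustered to hold the mixture closer to constant, and clusters were named only from fixed marker lists. Of 12 clusters 3 carried hepatocyte markers and are called hepatocyte-like, although 1 of them, with 142 cells, rests on only 3 markers and another, with 17 cells, was led by PLG. One cluster was mesenchymal-like, with COL3A1 among its leading genes, and 1 was mitotic-like, with TOP2A and CDK1 among its leading genes, and it carried 9 mitotic and 9 S phase markers. The remaining 7 clusters kept numbers only. Hepatocyte-like cells numbered 45, 69 and 24 in DMSO and 38, 111 and 23 in medium in runs 3, 5 and 6.

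The mean differences in the shares of these classes were smaller than the SD of the 3 within-run differences. With 3 runs the permutation test cannot go below p = 0.25, so it could not call a difference. Hepatocyte-like cells made up 18.0%, 22.2% and 25.8% of kept cells in DMSO and 16.1%, 26.0% and 18.7% in medium, a mean difference of −1.73 percentage points (SD of the 3 differences 5.46; exact sign-flip permutation test, two-sided, p = 0.75, adjusted p = 1 over 4 classes). Mesenchymal-like cells made up 15.2%, 16.7% and 18.3% against 15.7%, 12.9% and 11.4%, a difference of −3.42 points (SD 3.71, exact permutation p = 0.5). Mitotic-like cells made up 23.2%, 8.04% and 7.53% against 27.5%, 9.13% and 4.88%, a difference of 0.93 points (SD 3.50, exact permutation p = 0.75). The mitotic-like share was about the same in both conditions of a run and far higher in run 3 than elsewhere. No class was higher or lower in medium in all 3 runs, and of the 12 clusters only c1 (13.6%, 14.1% and 9.68% against 11.0%, 13.1% and 7.32%) and c11 (1.60%, 2.57% and 3.23% against 2.12%, 2.58% and 4.07%) kept 1 direction.

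**Figure D3:**
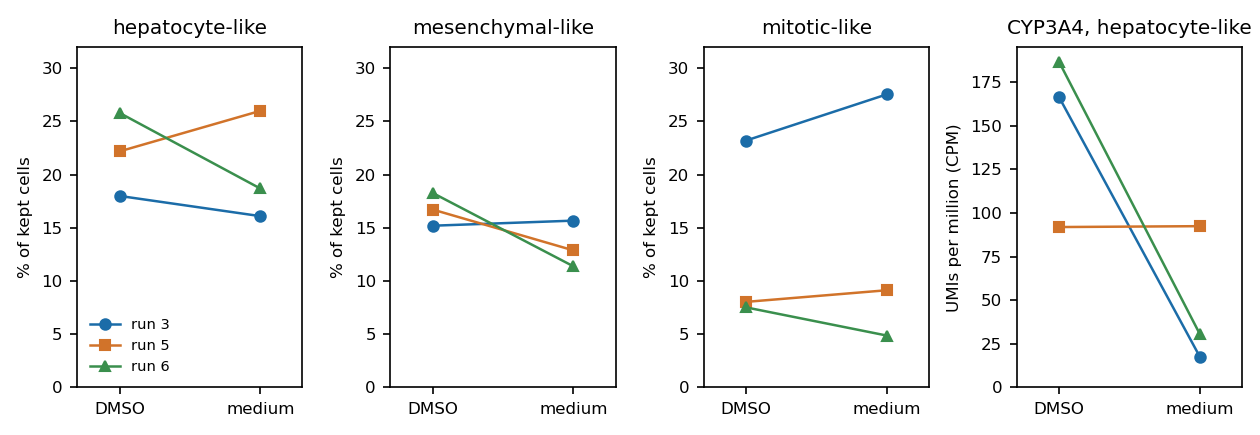
Share of kept cells in the 3 named classes, in percent, and the CYP3A4 level in hepatocyte-like cells, in CPM, by condition and run; lines join cultures of the same run. No class moves the same way in all 3 runs, and CYP3A4 in hepatocyte-like cells is lower in medium in runs 3 and 6 (166 to 17.6 and 187 to 30.6 CPM) and level in run 5 (91.9 and 92.4).

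Within hepatocyte-like cells the P450 differences were kept in part. CYP3A4 was at 166, 91.9 and 187 CPM in DMSO and at 17.6, 92.4 and 30.6 in medium, so run 5 showed no difference there. The share of hepatocyte-like cells with a CYP3A4 UMI was 31.1%, 39.1% and 41.7% in DMSO and 21.1%, 39.6% and 26.1% in medium, and 13.3%, 18.8% and 29.2% against 5.26%, 14.4% and 8.70% at 5000 UMIs per cell. As a gauge of free RNA, mesenchymal-like cells had shares of 2.63%, 3.85% and 0% in DMSO and 0%, 18.2% and 7.14% in medium, and at most 1.82% at 5000 UMIs. The shares of 0 come from 17 and 37 cells, with exact binomial upper limits of 19.5% and 9.49%. Median depth was 30594, 67882 and 50634 UMIs per hepatocyte-like cell in DMSO and 47584, 59818 and 31527 in medium. At equal depth, hepatocyte-like cells were thus above mesenchymal-like cells in every culture. The share with a CYP3A4 UMI was then lower in medium in each run. It rested on 6, 13 and 7 DMSO cells and on 2, 16 and 2 medium cells. The exact binomial limits of the conditions overlapped in each run, with 10.4% to 30.1% against 8.47% to 22.4% in run 5. Mean CYP3A4 UMIs per cell at this depth were 0.689, 0.464 and 2.125 in DMSO. They were 0.105, 0.613 and 0.130 in medium, so higher in medium in run 5.

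CYP2B7P and CYP2B6 had lower CPM in medium in the hepatocyte-like cells of each run. CYP2B7P was at 65.8, 21.1 and 31.7 CPM in DMSO and at 6.01, 12.5 and 1.33 in medium, and CYP2B6 at 54.9, 46.2 and 30.3 against 40.8, 25.1 and 24.0. At 5000 UMIs per cell 13.3%, 13.0% and 4.17% of these DMSO cells had a CYP2B6 UMI. In medium it was 7.89%, 10.8% and 17.4%, so higher in run 6, from 1 DMSO and 4 medium cells. The CYP2B7P share at that depth was lower in medium in each run (11.1%, 5.80% and 12.5% against 2.63%, 3.60% and 0%). Mesenchymal-like cells had CYP2B7P at 2.36, 5.21 and 0 CPM in DMSO and at 1.03, 5.56 and 2.64 in medium, so the run 6 medium value of hepatocyte-like cells, from 1 UMI, lay within that background. CYP3A5 was at 3976, 3740 and 4278 CPM against 4060, 2889 and 3757, which is level in run 3. ALB, the albumin gene, was at 16304, 18909 and 32938 CPM against 16518, 21169 and 20540, with a difference in run 6 only.

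These cells were fitted at a pair of cell minimums. With at least 30 cells per culture only runs 3 and 5 could enter, and without a block 0 of 15603 genes passed with edgeR (252 at an unadjusted p under 0.05). With at least 20 cells per culture, a limit chosen after seeing the data, run 6 could be added and run kept as a block, and 0 of 13242 genes passed (356 at an unadjusted p under 0.05, of which 173, or 1.31% of the genes tested, were lower). In the second fit 8 of 20 drug metabolism genes were lower at an unadjusted p under 0.05 and the list's median was −0.39. CYP2B7P had a log2 difference of −2.19 (SE 0.49, unadjusted p = 0.00071), CYP3A4 of −1.75 (SE 0.47, unadjusted p = 0.00253) and CYP3A5 of −0.18 (SE 0.12, unadjusted p = 0.148). All other cells together gave 0 of 19621 genes past the test (244 at an unadjusted p under 0.05) and a list median of −0.21. In the fit of runs 3 and 5 alone the difference of CYP3A4 was −1.14.

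CYP3A7 differed little in the hepatocyte-like cells of runs 3 and 5. It was at 24.4, 44.5 and 133 CPM in DMSO and at 18.0, 35.9 and 9.32 in medium, so most of its difference lay in run 6. The log2 difference was −0.34 (SE 0.36, 95% interval −1.14 to 0.45) over runs 3 and 5 and −1.14 (SE 0.45, unadjusted p = 0.0254, edgeR) with run 6 added. The share of hepatocyte-like cells with a CYP3A7 UMI was 17.8%, 47.8% and 66.7% in DMSO and 36.8%, 53.2% and 26.1% in medium, higher in medium in runs 3 and 5, and 4.44%, 11.6% and 25.0% against 7.89%, 11.7% and 8.70% at 5000 UMIs. Mesenchymal-like cells had shares of 0% to 12.7%, and 0% at 5000 UMIs.

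SPP1, the gene of the secreted protein osteopontin and a member of the cholangiocyte and progenitor list, went the other way and had the smallest p of both fits in hepatocyte-like cells. It was at 4.15, 8.31 and 4.04 CPM in DMSO and at 28.8, 35.1 and 14.6 in medium, with no overlap. The log2 difference with run 6 was 2.24 (SE 0.34, 95% interval 1.51 to 2.97, unadjusted p = 1.70e-05, adjusted p = 0.225, edgeR), and the run 6 values rest on 6 and 11 UMIs. Over all kept cells SPP1 was at 15.4, 24.6 and 22.4 CPM against 30.5, 39.4 and 23.5, a log2 difference of 0.60 (SE 0.20, unadjusted p = 0.0213, edgeR).

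Secreted plasma proteins, the main export of hepatocytes, also lay lower in medium. Of 24 genes tested, 22 had negative log2 differences, 10 were lower and 1 higher in each run, against 12.7% and 8.72% of all genes. At an unadjusted p under 0.05, 8 were lower and 1 higher, against 1.14% and 0.746%, and none passed the test (edgeR). The list's median was −0.38, and −0.28, −0.04 and −0.78 within runs 3, 5 and 6, so run 5 was level. It was −0.15 without run 6 and −0.11 with run 4 included. TF, the iron carrier transferrin, was at 652, 1042 and 1036 CPM in DMSO and at 540.4, 728 and 489 in medium, a log2 difference of −0.62 (SE 0.16, unadjusted p = 0.00584). RBP4, which carries retinol, was at 367.5, 671 and 649 CPM against 254, 582 and 438 (log2 difference −0.43, SE 0.11). ORM1, an acute phase protein that shares reads with ORM2, was at 504, 771 and 812 CPM against 344, 692 and 501 (log2 difference −0.47, SE 0.13). Each of these was lower within every run, yet the spread between runs made the groups overlap.

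The most abundant plasma protein genes did not keep 1 direction. ALB was at 6728, 8107 and 16059 CPM in DMSO and at 6100, 9331 and 8918 in medium, a log2 difference of −0.26 (SE 0.19, 95% interval −0.71 to 0.19). APOB, the protein of very low density lipoprotein, was at 3174, 3800 and 4772 CPM against 2861, 4358 and 3557 (log2 difference −0.13, SE 0.13). SERPINA1, the elastase inhibitor, was at 1544, 3067 and 2399 CPM against 1588, 3331 and 2135, with a log2 difference of 0.00 (SE 0.10) and a 95% interval of −0.24 to 0.23. A change of SERPINA1 beyond 1.5-fold is outside that interval.

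PLG, the gene of plasminogen (ENSG00000122194, chromosome 6), was the 1 member with a higher CPM in medium in each run. It was at 3.90, 3.41 and 5.19 CPM in DMSO and at 9.07, 8.62 and 8.85 in medium, with no overlap and a log2 difference of 1.14 (SE 0.23, 95% interval 0.60 to 1.69, unadjusted p = 0.00165, adjusted p = 1.00, edgeR). It too sat in few cells: 7, 19 and 6 DMSO cells and 10, 37 and 2 medium cells had a PLG UMI, against 2 DMSO and 1 medium mesenchymal-like cell in all. Without the highest cell of each culture PLG was at 2.32, 2.22 and 2.51 CPM in DMSO and at 3.38, 7.06 and 2.18 in medium, so the difference in run 6 rests on 1 cell with 31 of 41 UMIs. At 5000 UMIs per cell the mean PLG UMIs were 0.056, 0.0193 and 0.0538 in DMSO. They were 0.0127, 0.0375 and 0.0488 in medium, so lower in medium in runs 3 and 6. These means rest on 4, 3 and 2 DMSO cells and on 1, 9 and 2 medium cells.

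The regulators of hepatocyte identity were near level. In the list of hepatocyte transcription factors the median log2 difference was −0.09 over 13 tested genes, with 9 lower and 4 higher, and 1 lower at an unadjusted p under 0.05. HNF4A, the central factor of the set, was at 100.3, 137 and 106 CPM in DMSO and at 125, 126 and 123 in medium (log2 difference 0.13, SE 0.12). ONECUT1 was the exception, at 85.3, 104 and 117 CPM against 73.5, 82.5 and 46.6, a log2 difference of −0.60 (SE 0.22, unadjusted p = 0.0277, edgeR). Among bile acid genes CYP7A1, the first enzyme of bile acid synthesis, was at 5.34, 13.2 and 13.1 CPM against 3.64, 7.88 and 6.48 (log2 difference −0.76, SE 0.21), beside a list median of −0.13 over 12 genes. The lower values of ONECUT1 and CYP7A1 recurred in each run.

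Stress programmes that the study set out to read lay near 0. In the integrated stress response list, which includes the target genes of ATF4, 0 of 16 genes had an unadjusted p under 0.05 and the median was 0.13, with DDIT3 at −0.17 (SE 0.11) and ATF4 at 0.04 (SE 0.15). The endoplasmic reticulum folding list had a median of −0.02 over 20 genes, and its chaperone HSPA5 was at 313, 378 and 313 CPM in DMSO and at 322, 396 and 303 in medium. The heat shock list had a median of −0.02 over 16 genes and the p53 target list 0.09 over 20, both with 0 genes at an unadjusted p under 0.05. Within runs 3, 5 and 6 the integrated stress response median was 0.23, −0.13 and 0.10. For heat shock it was −0.10, 0.06 and −0.03 and for p53 targets 0.03, −0.11 and 0.22, so run 5 had the other sign in each. HSPA5 had a 95% interval of −0.20 to 0.24, which bounds its difference well within 1.5-fold.

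Oxidative, osmotic and sulfur responses were examined because DMSO is a sulfoxide and an osmolyte. The NRF2 target list had a median of 0.05 over 20 genes and none past the test. The osmotic stress list had a median of −0.04 over 11 genes. The sulfur compound list had a median of −0.09 over 18 genes, with MAT2A, which makes the methyl donor S-adenosylmethionine, at 106, 102 and 98.8 CPM against 239, 114 and 124 (log2 difference 0.56, SE 0.20). MAT2A was higher in each run, with most of the difference in run 3. Enzymes of DNA methylation and histone modification had a median of 0.15 over 21 genes, 0 of them at an unadjusted p under 0.05, and DNMT1 was at 49.2, 40.9 and 34.7 CPM against 61.6, 40.9 and 37.1.

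Lipid, inflammatory and housekeeping lists held single genes of note. PLIN2 and PLIN5, which coat lipid droplets, had log2 differences of −0.29 (SE 0.11) and −0.53 (SE 0.17), and PLIN5 was at 19.4, 18.6 and 17.2 CPM against 13.2, 12.6 and 12.7, without overlap. The chemokine genes CXCL8 and CXCL3 had log2 differences of −0.40 (SE 0.17) and −0.47 (SE 0.17), beside a median of −0.11 for 14 NF-kB targets, 6 of them lower in each run against 12.7% of all genes. The mitochondrially encoded MT-ND4L was at 597, 572 and 639 CPM against 485, 426 and 368 (log2 difference −0.50, SE 0.12, unadjusted p = 0.00438), while the 13 genes of its list had a median of −0.03. Ribosomal protein genes had a median of −0.12 over 30 genes, with RPL23 at −0.35 (SE 0.11). Of 20 cell cycle genes 4 were higher at an unadjusted p under 0.05, against 0.746% of all genes, among them MKI67, a marker of proliferation, at 231, 69.1 and 20.1 CPM against 291, 87.0 and 22.0, and MCM2 at 2.39, 3.14 and 2.28 against 4.85, 3.85 and 6.69. The cell cycle median was 0.13. Over all 37 lists, the drug metabolism and plasma protein lists included, 553 genes were tested, counting a gene of several lists once. Of these, 46 (8.32%) had an unadjusted p under 0.05 in either direction (edgeR), against 1.88% of all genes, none past the test.

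**Figure D4:**
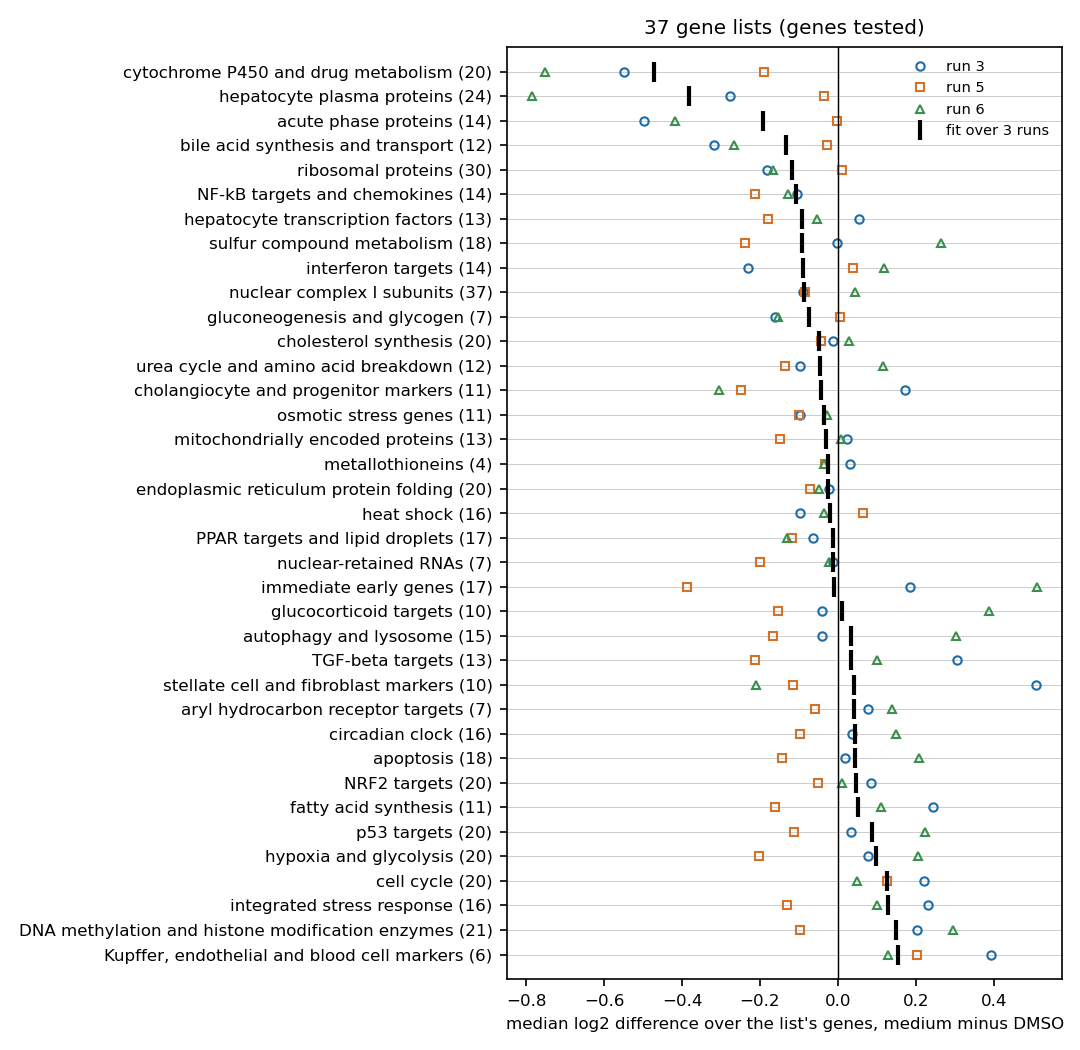
Median log2 difference, medium minus DMSO, of the tested genes of 37 lists; black bars are medians of the edgeR estimates over 3 runs, open symbols the medians within each run, and the number of genes tested is in brackets. The drug metabolism list is at −0.47 and the plasma protein list at −0.38, and every other list lies between −0.19 and 0.15.

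Among genes of at least 50 CPM with 1 direction in every run, those with the smallest p did not pass either. The highest-ranked gene above its DMSO level was SDC1, the heparan sulfate proteoglycan syndecan, at 76.4, 140.4 and 71.4 CPM in DMSO and at 149, 175 and 123 in medium (log2 difference 0.68, SE 0.15, unadjusted p = 0.00242, adjusted p = 1.00, edgeR). It was followed by ABCA12, EEF1A1, EYS, an unnamed gene (ENSG00000262769), OGT, TMED2, PSAP and GRAMD1B, with log2 differences of 0.33 to 0.53, and the groups of SDC1 overlapped although it was higher in each run. EEF1A1, a translation elongation factor with many pseudogene copies that may share its reads, was at 164, 197 and 159.8 CPM against 218, 244 and 260.4. On the lower side MT-ND4L was followed by PTS, UGT2B4, RBP4, TF, HSD17B6, ORM1, CYP3A5, PEBP1 and ACSM2B, with log2 differences of −0.62 to −0.36. Several of these are enzymes and secreted proteins of hepatocytes, such as HSD17B6, a steroid dehydrogenase, at 60.9, 77.1 and 95.9 CPM against 46.9, 59.9 and 53.1.

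The 3 runs did not repeat each other, and their differences ran with base composition. Over the 4376 better expressed genes the within-run log2 differences had a Pearson r of 0.61 between runs 3 and 6, −0.49 between runs 3 and 5 and −0.48 between runs 5 and 6, given as a description since genes share libraries and depth. Spearman's rho of the within-run difference with the GC content of the transcript, over 4373 genes, was 0.51 in run 3, −0.53 in run 5 and 0.43 in run 6. The 875 genes with the highest GC content, 52.0% to 69.0%, had median differences of 0.24, −0.21 and 0.32, and the 875 with the lowest, 31.3% to 39.3%, of −0.17, 0.09 and −0.11. Runs 3 and 6 thus tilted one way and run 5 the other. With transcript length rho was 0.11, 0.13 and 0.03.

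**Figure D5:**
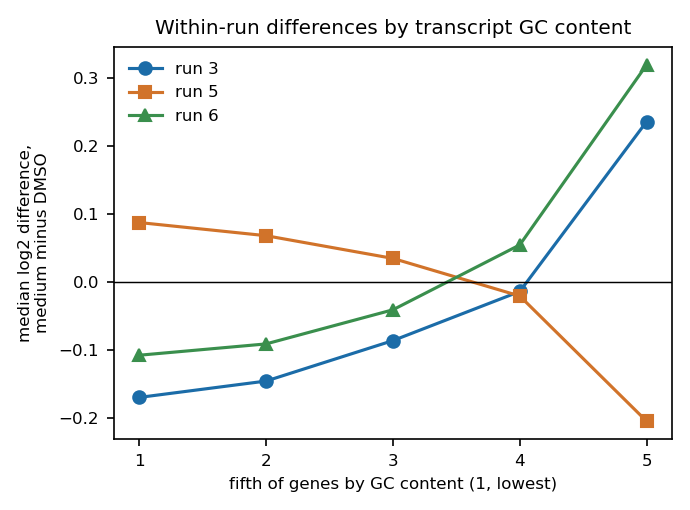
Median within-run log2 difference, medium minus DMSO, of genes grouped into 5 equal bins by transcript GC content, for runs 3, 5 and 6. Runs 3 and 6 climb from −0.17 and −0.11 in the lowest bin to 0.24 and 0.32 in the highest, and run 5 descends from 0.09 to −0.21.

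Without run 5 the test gave many calls. With its DMSO culture left out, and its medium culture then carrying no contrast, edgeR called 876 genes (4.28%) higher and 137 (0.67%) lower of 20447 tested, and with its medium culture left out 893 and 133. Of the 876 higher genes 44 of the 875 tested in 3 runs had the same direction in run 5, and their median GC content was 60.3% against 47.2% for all genes tested. Their leading gene was SHC1, a signalling adaptor, with log2 differences of 1.73 in run 3, −0.91 in run 5 and 1.76 in run 6, followed by FASN, HSPG2, PLXNA3 and PLEC, which were all lower in run 5. Of the 137 lower genes 79 of the 136 tested in 3 runs had the same direction in run 5, their median GC content was 42.0%, and they included 10 of 20 drug metabolism and 14 of 24 plasma protein genes, against 0.67% of all genes. CYP3A4 led them with a log2 difference of −2.97 (adjusted p = 1.90e-06, edgeR, 2 runs), and CYP3A7 followed with −2.25 (adjusted p = 0.000212). With an offset for GC content in each culture and without run 5, 144 genes were higher and 91 lower, of which 141 and 47 were shared with the calls made without the offset. With the offset and all 3 runs the drug metabolism median was −0.42 instead of −0.47, with all 20 genes lower, and the plasma protein median was −0.39 instead of −0.38.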

How the data were processed

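The authors deposited counts of UMIs per gene and cell for 62703 genes in 12976 cells of 8 sublibraries, with a cell table naming run, treatment and time. The authors' Parse Biosciences pipeline aligned reads to GRCh38 and collapsed identical UMIs; the name of the aligner and the annotation is not given in the sources used here. No doublet caller was run. Cells of at least 500 genes and at most 20% MT- UMIs were summed per culture and scaled by total UMIs (CPM). Genes kept by filterByExpr were tested with edgeR 4.0.16 (R 4.3.3; quasi-likelihood, run as block, 6 cultures, 2 residual degrees of freedom, Benjamini-Hochberg); DESeq2 1.42.0 was an alternative. Within-run ratios used 0.5 added UMI. Clusters came from scanpy 1.11.5 (Leiden, 2000 variable genes, 30 components, resolution 1). Gene positions, length and GC content came from GENCODE 44 (20218 of 20235 tested genes matched). Where 1 symbol had several identifiers (315 symbols), the one with most UMIs was used. Genes were named from the study's cell type and stress genes, by smallest p at 50 CPM or more with 1 direction in every run, and by smallest p in each list; P450 relatives, receptors and DNMT1 were chosen after their values were seen. The members and lists were chosen with earlier results of these data known. Values of some genes are not reported here, although counts and medians of their lists include them. The code was tested on simulated counts drawn without differences between runs or with GC content, so that test does not cover such differences. Intervals of log2 differences include the spread between cultures, while binomial limits cover counting error only.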

Additional observations from a re-analysis of the deposited data

How the results depend on the processing

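The count of 0 genes past the test in either direction was unchanged by TMM or DESeq2's size factors, totals without MT- and ribosomal genes, a filter of 10 CPM, all cells, cells thinned to 5000 UMIs, a minimum of 10 cells, a shared spread over all 38 cultures and a GC offset. DESeq2's own test gave 2 lower. Without a filter on low counts 49 genes were higher and 29 lower among all genes listed. Leaving out 1 culture gave 0 to 893 higher and 0 to 137 lower, all calls coming from leaving out a run 5 culture; without both run 5 cultures and with a GC offset there were 144 and 91. In hepatocyte-like cells of runs 3 and 5 leaving out 1 culture gave 0 to 12 higher and 0 to 2 lower, most of them without the run 3 medium culture; the lone culture of a condition was then assumed to vary like the others.

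The replicate block was also dropped: with no replicate block over 7 cultures 0 genes were higher and 0 lower (511 at an unadjusted p under 0.05). Deviations of same-numbered cultures from their condition means correlated at 0.50, −0.23 and 0.23 in runs 3, 5 and 6 over 8075 genes, so the run number did not pair the cultures by that check, and not every culture correlated best with its own number.

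The drug metabolism median was 0.14 at a limit of 10% MT- UMIs with at least 10 cells; the planned version with 30 cells could not be run, since no run had 30 such cells in both conditions, and the cause was not tested. Drug metabolism genes lower at an unadjusted p under 0.05 (edgeR) numbered 11 in the main fit. They numbered 5 in thinned cells (median −0.30) and 5 without the run 6 DMSO culture (−0.32). A minimum of 10 cells left 4 (−0.23) and the shared spread 3 (−0.49). In the other direction there were 13 with a GC offset, 14 without a filter and 16 without the run 5 DMSO culture. The cell cycle median was 0.42 without the block, 0.22 in thinned cells, 0.01 at 10% MT- UMIs, 0.22 without run 5 with a GC offset and 0.25 with the shared spread. At 10% MT- UMIs the MT- percentage differed by −0.28 points (medium minus DMSO) instead of 1.01 and the ribosomal protein percentage by −0.16 instead of −0.06. Of 1750 values of 90 named genes over 20 settings 106 had the other sign, in 38 genes, none of them past the test in either setting. CYP3A4 was lower in medium in 20 of 20 settings (−2.97 to −1.43) and CYP2B7P in the 19 that tested it (−2.01 to −1.37). These settings largely share the same cells and do not include the fits within hepatocyte-like cells. At 10% MT- UMIs CYP2B7P was at 3.46, 4.97, 5.21 and 3.82 CPM in DMSO in runs 3, 4, 5 and 6. In medium it was at 0, 17.4, 1.89 and 12.2, so higher in runs 4 and 6, from at most 16 UMIs per culture. Clustering without genes past the test was not run, as none passed; without genes at an unadjusted p under 0.05 the hepatocyte-like share differed by −2.23 points. Depth limits the genes of few UMIs, whose intervals reach beyond 2-fold.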

Other observations

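Runs 1 and 4 gave values outside the comparison. Run 1 held 4 DMSO cells, 2 of them kept, and 5 medium cells, none of them kept. In run 4 the median share of MT- UMIs over all cells was 2.47% in DMSO and 2.03% in medium, against 12.2% to 18.6% in runs 3, 5 and 6, and the median depth of kept cells was 17080 and 15630 UMIs.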
